A study of Arabidopsis thaliana with 6 samples.

Results

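The 3 wild-type Col samples of a dry seed study in Arabidopsis thaliana are described here through the transcripts that gave the highest signals and those that differed most among the 3 samples. Total RNA came from dry seeds, taken 18 to 19 days after pollination from ripe siliques of plants grown at 22 °C during 16 h of light and at 16 °C during the 8 h night. Each sample had an Affymetrix ATH1 array of its own. The series also holds 3 arrays of hda9-1, a mutant in which a T-DNA (SALK_001723) sits in the histone deacetylase gene HDA9. These arrays shared the growth conditions, seed stage and array type. They serve here only as arrays that took no part in choosing the transcripts, and no genotype comparison was made. Each biological replicate was pooled from siliques of at least 5 plants, so the spread among the 3 Col arrays is a spread among pools. The sample labels name dry seeds and Trizol extraction, while the design text names dry siliques and a column kit, so the starting material is not settled by the labels.

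Members were chosen by their values in the 3 Col arrays alone. After the 64 control probe sets were left out, 22746 probe sets were ranked by their mean deposited log2 value. The 200 highest form the first set and make up 0.879% of all. The second set holds the 100 with the largest standard deviation (SD) among the 4317 probe sets with a mean of 8 or more, which is 2.32% of those. The means and SDs below are therefore descriptions of how the sets were made, and no test was applied to them. A probe set reads its own transcript through its own probes, so the order of signals is an order of probe sets and not of transcript amounts. Of the 200 highest, 91 had 1 listed gene, 6 had several and 103 had none in the annotation used here, and of the 100 most variable the numbers were 49, 5 and 46. All of them count in the sets, and those without 1 listed gene are unnamed here.

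A dry seed carries messenger RNA made while the embryo matured and dried on the mother plant. Many of these stored transcripts encode products of late maturation, such as storage proteins, the oleosins that coat oil bodies, and late embryogenesis abundant (LEA) proteins. LEA proteins are small, mostly hydrophilic proteins that protect membranes and other proteins while the seed loses water. On imbibition part of the stored RNA is translated and part is broken down.

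The 3 Col arrays were closely alike. Pearson's r, taken over probe sets and so not over independent replicates, was 0.993 between replicates 1 and 2, 0.990 between 1 and 3, and 0.989 between 2 and 3. Medians over all probe sets were 5.43, 5.45 and 5.44 in replicates 1, 2 and 3. Replicate 3 stood apart in its control probe sets. The 3′ actin control exceeded the 5′ one by 1.58 log2 units in replicate 3, against 0.96 and 1.03 in replicates 1 and 2, and the 25S ribosomal RNA control read 12.17 there against 11.33 and 11.43. The ubiquitin excess was 0.87 against 0.62 and 0.61, and the GAPDH excess 0.61 against 0.36 and 0.33. These values move with several of the results below, and their part in them was not tested.

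The tissue label was set against markers of seeds and of other tissues, listed from textbook knowledge. These lists were made with earlier results of these data known, and the means are those that the rule ranked. The values are therefore descriptions and no independent check of the label. Of 20 markers of the dry seed embryo, 5 had a probe set with 1 listed gene, and all 5 had a mean of 8 or more. They were PAP85, a vicilin-like storage protein, the cupin gene AT2G28490, the oleosin genes AT3G01570 and OLEO3, and M17, a LEA gene, and the first 3 of them were among the 200 highest. Of all 13513 probe sets with 1 gene, 2132 had a mean of 8 or more and 91 (0.673%) were among the 200 highest. For green tissue 3 of 18 markers were measured, with means of 9.81 for RCA (Rubisco activase), 5.71 for PRK and 4.94 for SBPASE. Of the silique wall markers 2 of 14 were measured, ADPG1 at 12.83 and ALC at 6.24. Of the seed coat markers 4 of 11 were measured, from 4.34 for BAN to 9.06 for ARA12, and of the endosperm markers 3 of 8, from 3.41 for AGL62 to 10.22 for SWEET11. Of the pollen markers 6 of 10 were measured, from 5.53 to 9.50. A mean of 8 or more was reached by 1 of 3 measured markers of green tissue and 1 of 2 of the silique wall. For seed coat, endosperm and pollen the counts were 1 of 4, 1 of 3 and 3 of 6. Outside the embryo list only ADPG1 was among the 200 highest. List means in replicates 1, 2 and 3 were 12.36, 12.29 and 12.67 for the embryo markers, 6.54, 7.26 and 6.66 for green tissue, 9.37, 9.60 and 9.65 for the silique wall, 6.83, 6.71 and 6.28 for the seed coat, 5.87, 5.88 and 5.77 for the endosperm, and 7.74, 7.66 and 7.65 for pollen. Without M17 the embryo list means were 12.95, 12.95 and 12.81, so the highest place of replicate 3 in that list rested on M17. In such bulk samples fewer cells of a type and less RNA per cell cannot be told apart.

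The 200 highest probe sets lay between 11.88 and 14.86 in mean, with a median of 12.70, while the medians of whole arrays were 5.43 to 5.45. The 5 highest, at 14.52 to 14.86, were without 1 listed gene. Among the 20 highest, 4 had 1 listed gene, AT3G15670, AT1G04560, PAP85 and AT1G54870. AT1G04560, related to a plasma membrane protein of wheat that abscisic acid induces, read 14.42, 14.45 and 14.37. At the lower limit, AT1G19540 closed the set at rank 200 with 11.88, a probe set at rank 199 read 11.89, and those at ranks 201 and 202, outside it, read 11.88 and 11.87. The limit thus fell among close values. Of the 91 named members, 61 fell in none of 20 functional classes matched by locus or name.

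Transcripts of LEA genes were the most frequent named kind. A list of 32 LEA and seed maturation genes, written from textbook knowledge, had 23 measured members. Of those 23, 17 were among the 200 highest, as were 0.673% of all probe sets with 1 gene (91 of 13513). This list and those of storage and oil body genes were made with earlier results of these data known, so the shares are descriptions only. AT3G15670, a LEA gene at rank 6 of all probe sets, read 14.60, 14.42 and 14.30 in replicates 1, 2 and 3. The dehydrin gene LEA (AT2G21490) read 14.08, 13.91 and 13.89, and AtLEA4-1, another LEA gene, read 13.88, 13.82 and 13.99. Replicate 1 was highest for the first and second of these genes and replicate 3 for AtLEA4-1. AT3G17520 (13.66 ± 0.15, SD, n = 3), M10 (13.55 ± 0.07), LEA4-5 (13.47 ± 0.07) and AT3G02480 (13.34 ± 0.16) followed, and then LEA18 (13.29 ± 0.08), AT4G21020 (13.27 ± 0.13) and AT3G53040 (13.16 ± 0.22). LTI30, a dehydrin gene known from cold-treated plants that the list did not hold, read 13.13, 13.08 and 12.85. The largest SD of a LEA gene in the set was that of AT4G36600, which read 12.84, 12.06 and 12.57, with replicate 2 the lowest. AT2G42560 and AT3G22490 also had their lowest value in replicate 2, with 12.39, 11.95 and 12.25 and with 12.32, 12.05 and 12.23.

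The 6 measured members of the LEA list outside the 200 highest spanned a wide range. M17 had a mean of 10.60, AT2G18340 of 10.58, AT4G39130 of 10.23 and AT1G54410 of 8.93. AT5G27980, a seed maturation protein gene, stood at 5.96 and AT4G13230 at 4.19, which is below the median of all probe sets. M10 and M17 are both genes of the LEA class and lie close together on chromosome 2. M10 varied by an SD of 0.07 among the arrays, while M17 varied by 1.34, with 10.04, 9.62 and 12.13 in replicates 1, 2 and 3. The value of M17 in replicate 3 was thus above the lower limit of the 200 highest, and its other values were far below it.

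**Figure D1:**
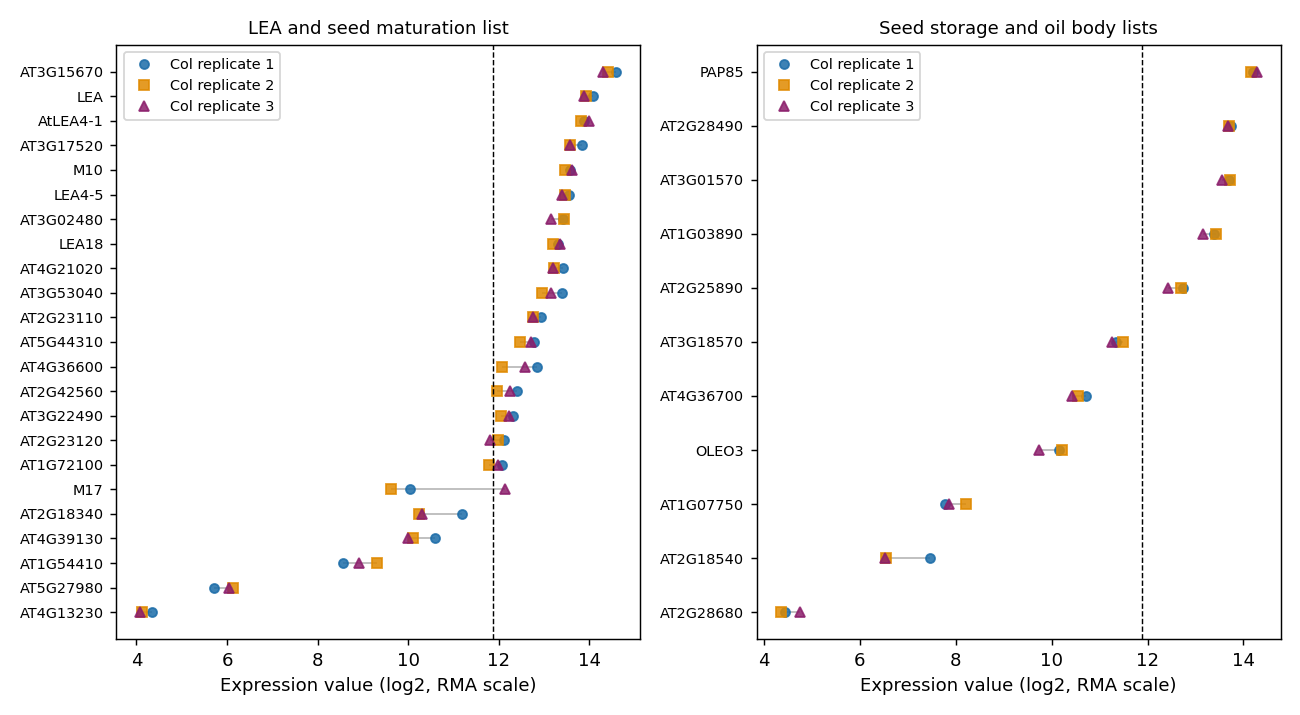
Values (log2, RMA scale) of the measured genes of the LEA and seed maturation list (left) and of the seed storage and oil body lists (right) in Col replicates 1, 2 and 3, with a grey line from the lowest to the highest array. The dashed line marks 11.88, the mean of the lowest of the 200 highest probe sets, and 17 LEA genes have means above it, while M17 spreads from 9.62 to 12.13.

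Storage and oil body genes were few among the named members. Few of the listed ones had a probe set with 1 listed gene, which is what measured means here. Whether others are among the 103 members without a listed gene cannot be read from the annotation used. Of 15 storage protein genes listed, 7 were measured and 3 of the 7 were among the 200 highest, again beside 0.673% of all probe sets with 1 gene. PAP85 read 14.20, 14.16 and 14.28, AT2G28490 read 13.74, 13.71 and 13.67, and the 12S globulin-like cupin gene AT1G03890 read 13.39, 13.44 and 13.15. The other 4 were the cupin genes AT4G36700 at 10.56, AT1G07750 at 7.95, AT2G18540 at 6.85 and AT2G28680 at 4.51. So genes of the cupin family lay near the top and below the median of the array. Of 13 oil body genes, 4 were measured. The oleosin genes AT3G01570 (13.66 ± 0.09, SD, n = 3) and AT2G25890 (12.62 ± 0.17) were among the 200 highest, and AT3G18570 (11.36 ± 0.11) and OLEO3 (10.04 ± 0.27) were not. All 4 oleosin genes had their lowest value in replicate 3, for example AT2G25890 with 12.74, 12.69 and 12.42.

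**Figure D2:**
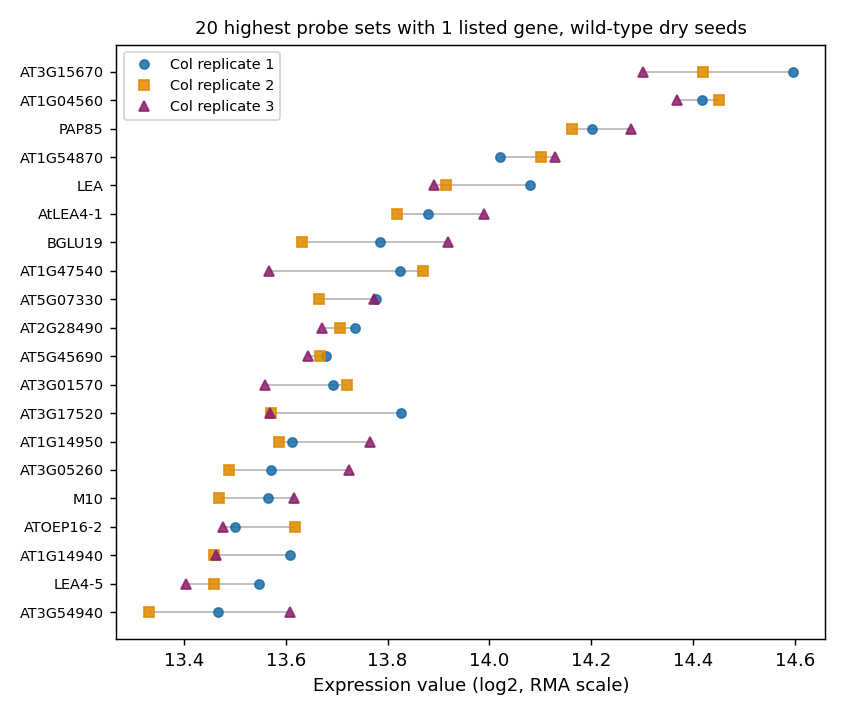
Values (log2, RMA scale) of the 20 highest probe sets with 1 listed gene in Col replicates 1, 2 and 3, ordered by their mean from AT3G15670 (14.44) to AT3G54940 (13.47). The grey line joins the lowest and the highest array, and AT1G47540 and AT3G15670 have the widest spread, from 13.57 to 13.87 and from 14.30 to 14.60.

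The remaining named members were sorted by the textbook role of their product, a grouping made after their values were seen and with no count of measured genes behind it, so the numbers per role are descriptions only. Genes of reduction and oxidation gave 6 members. AT1G54870, a short-chain dehydrogenase gene, read 14.02, 14.10 and 14.13, and AT3G05260 of the same family read 13.57, 13.49 and 13.72. The aldo-keto reductase gene AT5G01670 had a mean of 13.40 ± 0.07 (SD, n = 3), and the superoxide dismutase gene AT3G56350 one of 13.37 ± 0.01, the latter with 13.38, 13.36 and 13.37. The glutaredoxin genes GRXC1 (12.45 ± 0.09) and GRXC2 (12.24 ± 0.18) were 2 of 49 measured genes (4.08%) matched by name to a class of redox and detoxification, beside the same 0.673%.

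Proteases gave 5 members, among them enzymes that mature or degrade storage proteins. By name, 55 measured genes matched a class of proteases, and 3 of them (5.45%) were in the set, beside 0.673% of all probe sets with 1 gene. BETA-VPE, a vacuolar processing enzyme that cleaves storage protein precursors in seeds, read 13.09, 13.02 and 12.98, and its relative GAMMA-VPE read 12.03, 11.99 and 11.90. The papain-type cysteine protease genes AT3G54940 (13.47 ± 0.14, SD, n = 3) and AT4G16190 (12.44 ± 0.13) and the aspartic protease gene APA1 (12.65 ± 0.12) were the others. Small cysteine-rich proteins and inhibitors, many of which act against microbes or insect proteases, gave 5 members as well. AT1G47540, a trypsin inhibitor-like gene, read 13.83, 13.87 and 13.57, and the thionin-like gene AT2G15010 read 13.53, 13.69 and 13.16, each lowest in replicate 3. The plant defensin genes LCR67 (PDF1.1, 13.46 ± 0.10) and PDF2.1 (13.39 ± 0.10) and the inhibitor gene AT2G38870 (12.49 ± 0.04) completed the group.

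Genes of stress and signalling gave 7 members. The universal stress protein genes AT3G58450 (13.31 ± 0.06, SD, n = 3) and AT3G11930 (12.28 ± 0.12), TIL, a lipocalin induced by temperature (12.90 ± 0.15), and AT3G15260, a protein phosphatase 2C gene (12.30 ± 0.08), were among them. APG8H, an ATG8 gene of autophagy, read 12.15, 12.09 and 11.91, DI19, a drought-induced zinc finger gene, had a mean of 12.01, and AT1G75490, of the DREB2 type of transcription factor, read 12.19, 11.91 and 11.85. Of the metabolic enzymes, BGLU19, a beta-glucosidase, read 13.78, 13.63 and 13.92. ICL, an isocitrate lyase that helps turn stored oil into sugar after germination, read 12.56, 12.56 and 12.96 and was highest in replicate 3. FDH, formate dehydrogenase, had a mean of 12.28 ± 0.11, and SAMDC, an enzyme of polyamine synthesis, one of 12.24 ± 0.10. ATOEP16-2, a channel of the outer plastid envelope in seeds, had a mean of 13.53 ± 0.08.

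Other members are known from tissues around the embryo or from other organs. ADPG1, a polygalacturonase of silique opening (dehiscence), read 12.84, 12.81 and 12.85, with an SD of 0.02. ALC, the other measured marker of the silique wall, had a mean of 6.24. The extensin-like gene AT5G59170 (13.04 ± 0.19, SD, n = 3) and ARPN, a plantacyanin known from the pistil (12.02 ± 0.14), were also in the set. psbM, a small subunit of photosystem II encoded in the plastid, was the single one of 69 plastid genes among the 200 highest, at 13.07, 13.24 and 13.05. Of the 35 measured genes matched by name to ubiquitin and the proteasome, the 40 matched to transcription factors and the 6 matched to heat shock proteins and chaperones, none was in the set, where 0.673% of all probe sets with 1 gene were. With so few genes matched, a count of 0 is near that share and says nothing particular about these classes. Their highest means were 11.72, 10.99 and 8.67. The match by name left genes out, such as AT1G75490, described above, which is of a transcription factor type and is in the set.

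Several named members of the 200 highest were neighbours in the genome. Of the 90 placed on the nuclear chromosomes, 18 (20%) had another member within 5 places in the order of protein-coding genes of assembly TAIR10.1, while 3.05% of all 12224 placed genes had a member that near. AT1G14930, AT1G14940 and AT1G14950, genes of the major latex protein family, stood in a row on chromosome 1 and had means of 12.48, 13.51 and 13.66. The LEA genes AT2G23110 and AT2G23120 were adjacent on chromosome 2, at 12.81 and 11.97, with AT2G23090 close by at 12.49. AT1G54860 and AT1G54870 were adjacent at 12.88 and 14.08, and so were SAMDC and the LEA gene AT3G02480 at 12.24 and 13.34. BGLU19 and AT3G21380, which encodes a jacalin-type lectin, were 2 places apart, at 13.78 and 12.35. Near-identical copies can share probes, and whether the probe sets of the latex protein genes tell these genes apart was not tested. Because the members were chosen by rank the shares are a description only.

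The highest signals had small SDs, read near the top of the array scale, where differences can be compressed. The median SD over the 3 Col arrays was 0.12 for the 200 highest, and 162 of them had an SD under 0.2. By comparison the median SD was 0.17 for all probe sets with a mean of 8 or more. It fell from 0.18 for means of 10 to 11 to 0.14 for means of 12 to 13 and 0.09 for means of 13 to 14. For means of 3 to 4 the median SD was 0.10, so the spread was widest at intermediate levels. None of the 200 differed by 1 log2 unit or more between any pair of Col arrays. Only 3 of the 200, all without 1 listed gene, had an SD of 0.4 or more. They read 13.06, 13.13 and 12.33, then 12.64, 13.02 and 12.04, then 12.50, 12.55 and 11.63, each lowest in replicate 3.

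The hda9-1 arrays, which played no part in the choice, held most of the same probe sets at the top. Of the 200, 169 were among the 200 highest by the mean of the 3 hda9-1 arrays, where a set of 200 makes up 0.879% of all probe sets. In hda9-1 replicates 1, 2 and 3 alone the counts were 171, 166 and 167. In the single Col arrays, which did enter the choice, the counts were 192, 188 and 185. A core of 150 probe sets was among the 200 highest in all 6 arrays. Of all 200, 198 were among the 400 highest of the 22746 probe sets by the hda9-1 mean, and the lowest stood at rank 551. The ranks in hda9-1 are given as a description, and the genotypes were not compared. Of the 31 outside the 200 of the hda9-1 mean, 15 had 1 listed gene, and these included the LEA genes AT4G36600 (rank 117 in Col and 385 in hda9-1), AT2G42560 (155 and 321), AT3G22490 (156 and 224), AT2G23120 (186 and 359) and AT1G72100 (189 and 229). The rest of the 15 were not of the LEA class, among them AT1G75490 (182 and 366), AT1G01170 (174 and 346) and AT3G10020 (193 and 335). The Col ranks of the 15 ran from 105 (AT3G15280) to 200 (AT1G19540).

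The 100 most variable probe sets shared none with the 200 highest. Their SDs ran from 0.56 to 1.72 with a median of 0.66, and their means from 8.01 to 11.14. The limit was again close-set, with atpH at rank 99 (SD 0.558) and a probe set at rank 100 (0.557) inside and psaI at rank 101 (0.556) and a probe set at rank 102 (0.555) outside. Neighbouring genes of the lipid transfer protein family, whose products carry lipids in cell walls, led the named members. AT5G38170 read 8.57, 10.67 and 7.25 in replicates 1, 2 and 3 (SD 1.72, n = 3), and AT5G38160, next to it on chromosome 5, read 9.19, 11.10 and 8.21 (SD 1.47). Replicate 2 was the highest and replicate 3 the lowest for both. These paralogs may share signal, which was not tested. AT3G58550, another gene of the family, read 8.10, 8.71 and 7.56, in the same order of arrays.

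Other named members varied mainly through replicate 3. M17, described above, was higher there by over 2 log2 units than in the other 2 arrays. AT4G27450 and AT3G15450, of a family of aluminium-induced proteins, read 9.76, 9.94 and 11.30 and 9.77, 10.46 and 11.43, with replicate 3 the highest for both. GH3.3, whose product joins auxin to amino acids, read 7.90, 7.87 and 9.19, and AT1G14130, an auxin oxidase gene, read 9.59, 10.09 and 8.96, highest and lowest in replicate 3 respectively. DFR, dihydroflavonol reductase of the flavonoid pathway that colours the seed coat, read 9.13, 8.42 and 7.16. The glutathione transferase gene GSTL3 read 9.60, 9.50 and 8.38, and PIFI, a plastid protein gene of chlororespiration, read 10.43, 10.47 and 9.31, both lowest in replicate 3. AT1G12010, of the ACC oxidase family of ethylene synthesis, read 11.34, 11.50 and 10.32, again lowest there.

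**Figure D3:**
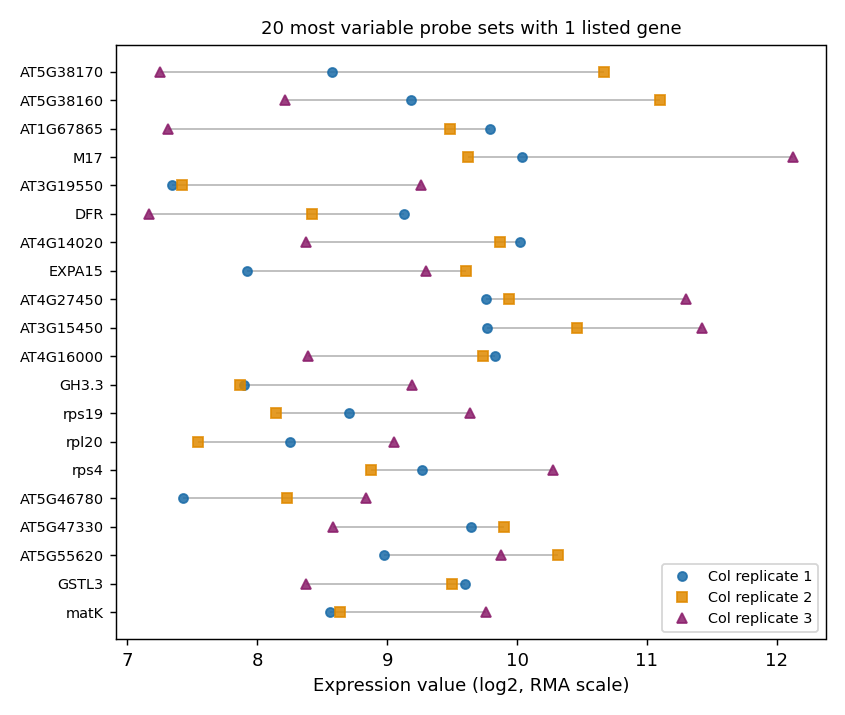
Values (log2, RMA scale) of the 20 most variable probe sets with 1 listed gene among those with a mean of 8 or more, in Col replicates 1, 2 and 3, ordered by SD from AT5G38170 (1.72) down. The grey line joins the lowest and the highest array, and replicate 3 lies at one end for most genes, above the others for M17 and below them for AT1G67865.

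Fewer named members were set apart by replicate 1 or 2. EXPA15, an expansin that loosens cell walls, read 7.92, 9.60 and 9.30, with replicate 1 the lowest. AT5G55620 read 8.97, 10.32 and 9.88, in the same order. TBL38, of a family that acetylates wall polysaccharides, read 7.90, 9.02 and 8.59. AT1G62760, of the pectin methylesterase inhibitor type, read 9.21, 8.33 and 7.98 and was highest in replicate 1. A second probe set of AT1G62760 had a mean of 3.27, near the lowest values of the arrays (2.58 to 2.70), and its order of arrays is not read. For AT5G37590 the 2 probe sets read 8.29, 7.74 and 8.86 and 6.05, 5.44 and 6.24, in one order. These were the 2 genes of either set with a second probe set.

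Transcripts of the plastid genome moved together among the Col arrays. The plastid genome encodes part of the photosynthetic complexes, an NADH dehydrogenase, an RNA polymerase and ribosomal proteins. Of 69 measured plastid genes, 60 were highest in replicate 3 and 53 were lowest in replicate 2. No such count over all probe sets is given here, so whether 60 of 69 is unusual cannot be read from it. A stricter measure asks that replicate 3 be the highest and also the array farthest from the middle value. That held in 16.0% of the 4317 probe sets with a mean of 8 or more. This share is not one to set against the 60 of 69, which asks less and includes genes with lower means. The mean over the 69 genes was 8.34, 8.06 and 8.84 in replicates 1, 2 and 3. Of the 100 most variable probe sets, 12 were of these named plastid genes, of which 43 had a mean of 8 or more. Beside that, 2.3% of all probe sets with 1 gene at that level were in the 100. For 11 of the 12, replicate 3 was the array farthest from the middle value, above it, and for the other one, atpH of the ATP synthase (8.41, 7.77 and 8.88), replicate 2 was farthest, below it.

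The plastid groups differed in their spread. The 15 genes of ribosomal proteins had a median SD of 0.61 and list means of 7.95, 7.57 and 8.65 in replicates 1, 2 and 3, and 14 of them were highest in replicate 3. They made up 6 of the 12 variable plastid genes, namely rps19 (8.70, 8.14 and 9.64), rpl20 (8.25, 7.55 and 9.05), rps4 (9.27, 8.88 and 10.27), rpl14, rpl36 and rpl22. The 4 RNA polymerase genes had a median SD of 0.61 and were all highest in replicate 3, with rpoC1 at 6.55, 6.41 and 8.06, but their means were near or below 8. The 20 photosystem genes had a median SD of 0.23, and 6 of them, psbF, psbE, psbM, psaA, psbJ and psbL, were not highest in replicate 3. psbA, which encodes the D1 protein of photosystem II, was the one photosystem gene among the 100, with 9.98, 10.43 and 11.29. The 6 genes of the ATP synthase and the 6 of the cytochrome complex had median SDs of 0.50 and 0.41, and atpB and petB were the 2 of these not highest in replicate 3. The 10 NADH dehydrogenase genes were all highest in replicate 3, among them ndhD with 8.74, 8.41 and 9.56. matK, which encodes a splicing factor inside the plastid, read 8.56, 8.63 and 9.76, and accD, for a subunit of acetyl-CoA carboxylase in fatty acid synthesis, 7.98, 7.72 and 8.84.

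**Figure D4:**
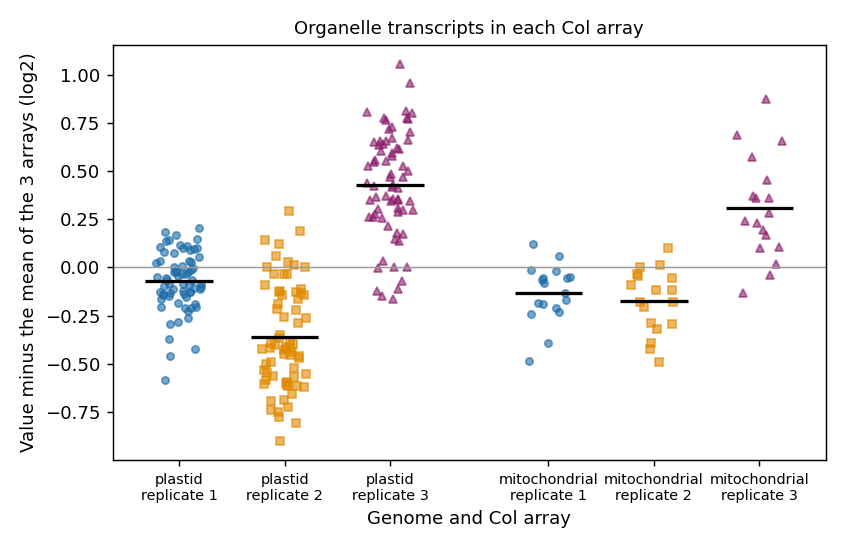
Value of each organelle probe set minus its mean over the 3 Col arrays (log2), for the 69 plastid genes (left) and the 18 mitochondrial probe sets (right) in each Col array, with a black bar at the mean. Most plastid points lie above 0 in replicate 3 and below 0 in replicate 2, and 16 of 18 mitochondrial probe sets are highest in replicate 3.

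Most mitochondrial probe sets were also highest in replicate 3, at lower signals. Of 18 mitochondrial probe sets, which stood for 11 genes, 16 were highest in replicate 3, and the list mean was 5.20, 5.16 and 5.64. No such count over all probe sets is given here, so the 16 of 18 is not read as particular to mitochondrial transcripts. Several of the 18 were of the same gene, nad1, and so are not separate members. Some lay near the lowest values of the arrays, such as nad2 with a mean of 3.56, where the order of arrays says little. cox1, a cytochrome oxidase subunit, was the single mitochondrial probe set with a mean of 8 or more. It read 7.72, 7.82 and 8.81 and was among the 100 most variable. nad4, of respiratory complex I, read 7.22, 7.31 and 8.57 with a mean under 8. Replicate 3 was also the highest Col array in the 25S ribosomal RNA control (12.17 against 11.33 and 11.43). It was the highest in the 3′ excess of actin, ubiquitin and GAPDH as well. Replicate 2, the lowest in the organelle list means, was the lowest in the ubiquitin (0.61) and GAPDH (0.33) excess. In the 25S and actin controls replicate 1 was the lowest. The part of these controls in the organelle values was not tested.

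Over all 100 variable probe sets, replicate 3 was the array farthest from the middle value of the 3 in 69, and in 46.4% of the 4317 with a mean of 8 or more. It was the highest array in 33 of the 69 and the lowest in 36. Replicate 1 was the farthest in 22, in 16 of them below the others, and replicate 2 in 9. Among the 36 named members that are not of an organelle genome, replicate 3 was farthest above in 9 and farthest below in 16. Among the 200 highest it was the farthest array in 102, with 73 below and 29 above. Of the 33 variable probe sets farthest above in replicate 3, 12 were of genes that the annotation places on an organelle genome. The 87 of the 100 not placed there include probe sets without a listed gene, whose genome is not known here. In these 87 replicate 3 was farthest above in 21 and farthest below in 36, so there too more were below than above. Since the SD that chose the 100 is large where 1 array departs, the counts describe how the set came about.

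**Figure D5:**
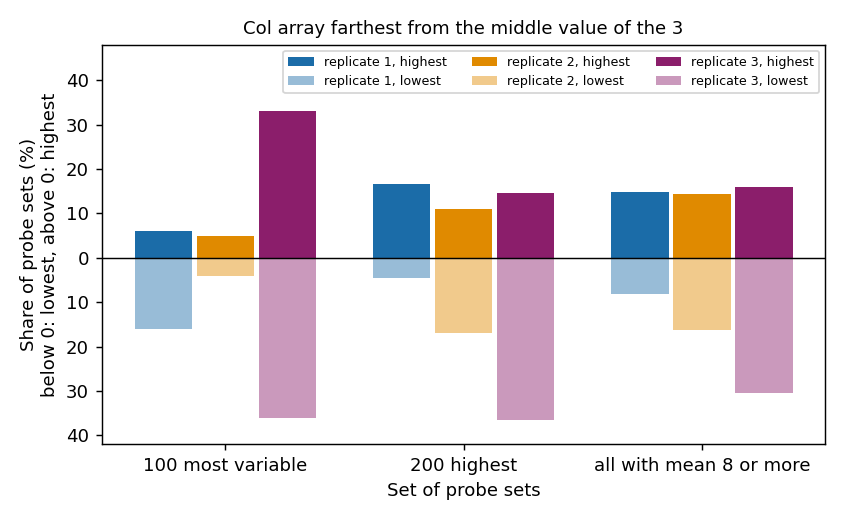
Share of probe sets (%) in which each Col array was the one farthest from the middle value of the 3, drawn upward where it was the highest and downward, in a paler tone, where it was the lowest. Among the 100 most variable, replicate 3 was farthest in 33% above and 36% below, among the 200 highest in 14.5% and 36.5%, and among all 4317 probe sets with a mean of 8 or more in 16.0% and 30.4%.

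Most of the variable probe sets also had high SDs among the hda9-1 arrays, which the rule did not use. Their median SD there was 0.36, against 0.12 for all probe sets with a Col mean of 8 or more, and 94 of the 100 exceeded that median. The 90th percentile of those SDs was 0.29, and 71 of the 100 exceeded it, as 432 of the 4317 did. By the same rule applied to the hda9-1 arrays, 28 of the 100 would be among the 100 most variable there, as would 72 (1.67%) of the 4317. Of the named ones EXPA15 (SD 1.37 in hda9-1), DFR (1.24) and M17 (1.01) had the largest SDs among those described, AT5G38170 and AT5G38160 stood at 0.37 and 0.38, and GH3.3 at 0.27. In the hda9-1 arrays AT5G38170 read 6.70 to 7.43, AT5G38160 7.04 to 7.80 and GH3.3 6.31 to 6.84. Their means there were thus under the limit of 8. In AT2G44260, which read 8.76, 8.53 and 7.50 in Col, the hda9-1 SD was 0.05, the lowest of the 100, and this gene was singled out after its values were seen. For the 200 highest the median SD was 0.09 in the hda9-1 arrays and 0.12 in Col.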

How the data were processed

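For 3 Col and 3 hda9-1 samples, 1 µg of total RNA went into biotin labelling for Affymetrix ATH1 arrays, per the labels' protocols. The authors deposited log2 values for 22810 probe sets. RMA, affy and limma are listed, without versions, per the submitters' processing notes. RMA fits background, normalises the arrays to 1 distribution and summarises probes, so spread common to a whole array is removed before deposit, and the number of arrays limits precision.

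From these values the mean, SD (n = 3) and rank were computed after 64 control probe sets were left out (Python 3.11.15, pandas 2.3.3, numpy 2.4.6). The sets are the 200 highest means and the 100 largest SDs at a mean of 8 or more. Probe sets were named through the platform annotation, updated through Entrez identifiers to RefSeq names of TAIR10.1: 13513 had 1 gene, 503 several and 8730 none. Cyclic loess used limma 3.58.1 in R 4.3.3. No statistical test was applied, because the values chose the members. The code for ranking, SD and farthest array was checked on simulated data.

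Members, lists and classes were chosen with earlier results of these data known. A class keyword for thionins that also matched methionine was corrected after its matches were seen. Named were the 20 highest and 20 most variable with 1 gene, up to 4 per class, and 2 probe sets on each side of each limit. Genes named beyond that, including those placed in role groups, were chosen after their values were seen. Promoter motifs and protein features were not analysed here.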

Additional observations from a re-analysis of the deposited data

How the results depend on the processing

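Membership of the 200 highest held under most alternatives: 194 were shared when ranked by the median, 193 by the lowest array, 200 after cyclic loess, and 193 to 195 when 1 Col replicate was left out. With 1 probe set per gene 91 were shared, since 91 have 1 gene. The share of named members in a functional class was 33.0%, against 38.3% for 100 and 22.0% for 400 probe sets, 25.3% by loci alone, and 32.6 to 34.8% with 1 replicate left out. The LEA share was 18.7%, and 9.34% for 400 probe sets. The most variable set depended more on the arrays. Its 100 members shared 52 with the set at a mean of 7 or more and 47 at 9 or more, partly because the eligible probe sets differ, and 91 with a ranking by range. Leaving out 1 replicate kept 29 to 66, with 29 without Col replicate 3, and the SDs of 3, 2 and 15 of the 20 named variable genes moved without replicates 1, 2 and 3. Without replicate 2 the SD of AT5G38170 was 0.93 and that of AT5G38160 0.69, and without replicate 1 that of EXPA15 was 0.22. Replicate 3 was the farthest array in 64 to 75% of the variable probe sets under the 5 alternatives tried. The alternative without probe sets placed on an organelle genome (64%) was chosen after seeing the data. Between 166 and 171 of the 200 highest were among the 200 of hda9-1 under its 6 alternatives. No paired analysis was possible because the results come from no test. The alternatives for promoter motifs and protein features were not run. With 3 arrays an SD is imprecise.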
